A study of Mus musculus with 8 samples.

Results

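Laminins are the adhesive proteins of basement membranes. Each is a trimer of an α, a β and a γ chain made from separate genes, and many are cross-shaped. The α chain carries the globular domains that bind integrins and dystroglycan on the cell surface. The β and γ chains join α in a long coiled coil, and short arms let many laminins polymerize into a sheet. In the brain, astrocyte endfeet rest on such a sheet around blood vessels and beneath the pia, and astrocytes are known to supply part of it. TGF-β is a classical inducer of matrix genes, and RGC-32 (response gene to complement 32, encoded by Rgcc) is a protein that takes part in its signaling.

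The data described here are those of 8 laminin chain genes, taken by name from a table of 13937 genes: Lama1, Lama2, Lama4 and Lama5 (α chains), Lamb1 and Lamb2 (β chains), and Lamc1 and Lamc3 (γ chains). The deposited table writes them in capitals, as LAMA1, LAMA2, LAMA4, LAMA5, LAMB1, LAMB2, LAMC1 and LAMC3. All 8 passed the filter on low counts and were among the 13509 genes tested. The cells were primary brain astrocytes of C57BL/6 pups aged 1 day, grown in serum for 2 weeks, shaken to remove oligodendrocyte precursors and neurons, and starved of serum overnight. The 4 groups, of 2 biological replicates each, were WT control (wild type, untreated), WT TGF-β (wild type, stimulated with 10 ng/ml of TGF-β over 24 h), KO control (RGC-32 knock-out, untreated) and KO TGF-β (RGC-32 knock-out, the same dose and time). Neither a restriction of the knock-out to a cell type nor the number of pups in a culture is given in the sources used here. The meninges had been taken off the brains before culture.

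The 8 libraries held 14920561 to 18956038 counted reads, and the replicates of each group differed by more than counting noise. Rgcc itself was read at 5.16 and 5.61 CPM (the count of a gene scaled to library size by TMM) in WT control and 11.9 and 23.1 in WT TGF-β, against 3.89 and 1.66 in KO control and 4.29 and 1.72 in KO TGF-β, so every WT library was above every KO library although reads of the gene were still counted there. Averaged over the treatments, the log2 difference of Rgcc was 1.75 (adjusted p = 0.0888). The astrocyte markers were abundant, with 10 of 10 read in every library and Gfap, the intermediate filament of astrocytes, the highest. Their summed CPM was 4619 to 6004 in the control libraries and 3584 to 4716 with TGF-β, lower in each genotype, and 2 of the 10, the glutamate transporter Slc1a2 and the glutamine synthetase Glul, fell in both. Gja1, another of the 10, had positive log2 fold changes of 0.35 in WT and 0.33 in KO, under the fold limit given below. Markers of other cells were present too. The summed CPM of 12 meningeal fibroblast genes was 4109 to 5918 in the control libraries and 6879 to 10344 in the TGF-β libraries, and that of 7 pericyte and smooth muscle genes was 211 to 249.8 and 498 to 761. The sums fell outside the control range in the opposite direction for 6 endothelial genes (99.7 to 127 in controls, 67.8 to 80.5 with TGF-β) and 9 ependymal genes (397 to 475 and 253 to 314). Foxj1 had the most reads of the ependymal genes in every library. Of the 9 ependymal genes, 7 fell in WT and 4 in KO, and none rose. Cdh5 had the most reads of the endothelial genes and fell in both genotypes, as Kdr did in KO, while Flt1 rose in both and Esam in WT. Of the fibroblast genes, Col1a1, Col1a2 and Aldh1a2 rose in both genotypes while Pdgfra fell in both, Dcn and Ogn fell in WT and Ptgds in KO, and 1 gene was at 0 in 1 library. Col1a1 had the most reads of the fibroblast genes in every library. The median log2 fold change of the 11 fibroblast genes tested was -0.42 in WT and -0.29 in KO. Of the pericyte and smooth muscle genes, Pdgfrb, Notch3, Cspg4, Anpep and Myh11 rose in both genotypes. Vtn fell in KO, and Rgs5 was called in neither genotype. The sum of 6 neuronal genes was 280.3 to 337 in controls and 355 to 397 with TGF-β, with Tubb3 higher in both genotypes and 1 gene at 0 in 1 library. Under the call defined below, 7.72% of all genes rose and 5.65% fell in WT, and 6.61% and 4.93% in KO. Microglial (1201 to 1629) and oligodendrocyte lineage (287 to 377) sums also were above 0 in every library. Of 12 microglial genes, 1 rose and none fell in each genotype. Of 8 oligodendrocyte lineage genes, 2 fell in each genotype and 1 rose in KO. The part of these cells in the laminin results was not tested, and in bulk RNA more cells that make a chain and more transcript per cell cannot be told apart.

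The chains lie on 6 chromosomes of the mouse genome (GRCm38, GENCODE M21). Lama1 spans chromosome 17 from 67697259 to 67822647 (plus strand), Lama2 spans chromosome 10 from 26980036 to 27619758 (minus) and Lama4 lies on the same chromosome from 38965515 to 39110188 (plus). Lama5 spans chromosome 2 from 180176373 to 180225859 (minus), and Lamc3 lies on that chromosome too, from 31887291 to 31946539 (plus). Lamb1 spans chromosome 12 from 31265234 to 31329644 (plus), Lamb2 chromosome 9 from 108479736 to 108490530 (plus) and Lamc1 chromosome 1 from 153218922 to 153332786 (minus). The library kept no strand, so reads of Lama2 and Lamc3 cannot be told from those of the antisense genes Gm48084 (631 shared exonic bases, 3.86% of the Lama2 exons) and Gm13441 (382 bases, 6.27% of the Lamc3 exons).

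Promoter sequence from RefSeq (GRCm38.p6) was matched for Lama2, Lama5, Lamb1 and Lamb2, and was not used for Lama1, Lama4, Lamc1 or Lamc3. The stretches shown each end before the first annotated exon, and were picked because they belong to the β chain that rose with TGF-β (Lamb1), to the β chain that did not pass the test (Lamb2) and to an α chain whose response was small (Lama5). Capitals mark matches on either strand to CAGAC, the short motif of SMAD proteins, and to GGGCGG, that of SP1.
Lamb1, chr12:31265043-31265145, plus strand: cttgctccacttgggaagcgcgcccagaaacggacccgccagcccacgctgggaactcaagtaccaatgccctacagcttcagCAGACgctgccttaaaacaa
Lamb2, chr9:108479612-108479735, plus strand: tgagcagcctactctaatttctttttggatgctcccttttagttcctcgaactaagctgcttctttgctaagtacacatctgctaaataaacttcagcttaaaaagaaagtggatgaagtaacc
Lama5, chr2:180225905-180226109, minus strand: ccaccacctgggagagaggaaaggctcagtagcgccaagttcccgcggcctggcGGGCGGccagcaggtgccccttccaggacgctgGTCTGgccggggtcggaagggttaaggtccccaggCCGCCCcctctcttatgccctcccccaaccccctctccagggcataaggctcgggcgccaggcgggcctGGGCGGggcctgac

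Over the whole windows of 300 bases, CAGAC was found once in Lamb1, Lama5 and Lama2 and at 2 places in Lamb2, and 49.6% of 32851 mouse promoters hold it. GGGCGG was found at 2 places in Lamb1, 4 in Lama5, 1 in Lama2 and 0 in Lamb2, against 35.7% of promoters with a match. None of the 4 windows held the SMAD palindrome GTCTAGAC (0.213% of promoters), the AP-1 motif TGANTCA (7.81%) or the TEAD motif GGAATG (14.7%). GC content was 63.7% in Lamb1, 44% in Lamb2, 72.7% in Lama5 and 50.3% in Lama2, beside a median of 52.7%. The chain that rose and the chain that did not both held the SMAD motif, and a match is a description of letters, not a site.

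To compare levels between genes, the FPKM values of the authors (fragments per kilobase of transcript, scaled to library size) were used, since the chains differ in length. In untreated WT astrocytes the β2 chain gene Lamb2 was the highest at 67.3 ± 4.32 FPKM (SD, n = 2), followed by the γ1 chain gene Lamc1 at 30.5 ± 0.882 and the β1 chain gene Lamb1 at 19.3 ± 0.555. Among the α chains Lama4, known from the vascular wall, led at 16.3 ± 2.19 FPKM. Lama5 stood at 7.29 ± 0.139 and Lama2, the α chain of muscle and of astrocyte and pericyte basement membranes, at 3.10 ± 0.0502. Lama1, the α chain of the early embryo and the pial surface, was at 0.587 ± 0.420 FPKM and Lamc3 at 0.0646 ± 0.0684. The order was therefore that of a laminin repertoire led by Lama4, Lamb2 and Lamc1, and in WT control no pair of neighbours in this order overlapped between libraries.

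In untreated KO astrocytes the 8 chains came in the same order, with Lamb2 at 72.4 ± 5.13 FPKM, Lamc1 at 28.7 ± 0.156, Lamb1 at 15.7 ± 0.833 and Lama4 at 13.4 ± 1.97. After TGF-β the first 4 places were unchanged in both genotypes, but Lama1 had moved from 0.587 to 4.30 ± 0.741 FPKM in the WT cultures and from 0.529 to 3.10 ± 0.420 in the KO cultures, and Lama2 to 7.95 ± 1.29 and 5.16 ± 0.298. In WT TGF-β the values of Lama2 and Lama5 (8.68 ± 0.290) overlapped, so their order there is not settled. Lamb3 and Lama3, which are not among the 8, were low: Lamb3 stayed between 1.10 and 1.38 FPKM as a group mean and Lama3 between 0.119 and 0.268. Lama3 overlapped Lamc3 in both TGF-β groups.

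The make-up of each class shifted accordingly. Of all α chain FPKM, Lama1 made up 2.18% ± 1.65 (SD, n = 2) in WT control and 11.6% ± 2.97 in WT TGF-β, and Lama2 11.3% ± 0.845 and 21.4% ± 5.27. Lama4 went from 59.3% ± 4.51 to 43.0% ± 9.47 and Lama5 from 26.6% ± 2.06 to 23.2% ± 1.21. In KO the same shares were 2.28% and 11% for Lama1, 10.8% and 18.2% for Lama2, 55.9% and 46.6% for Lama4, and 30.5% and 23.7% for Lama5. Among β chains Lamb1 moved from 22.1% ± 1.58 to 34.3% ± 1.47 in WT cultures and from 17.6% ± 1.68 to 29.9% ± 1.47 in KO, with Lamb2 making up nearly all the rest. Of the FPKM of Lamc1 and Lamc3 together, Lamc1 made up group means of 99.5% to 99.8%.

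**Figure D1:**
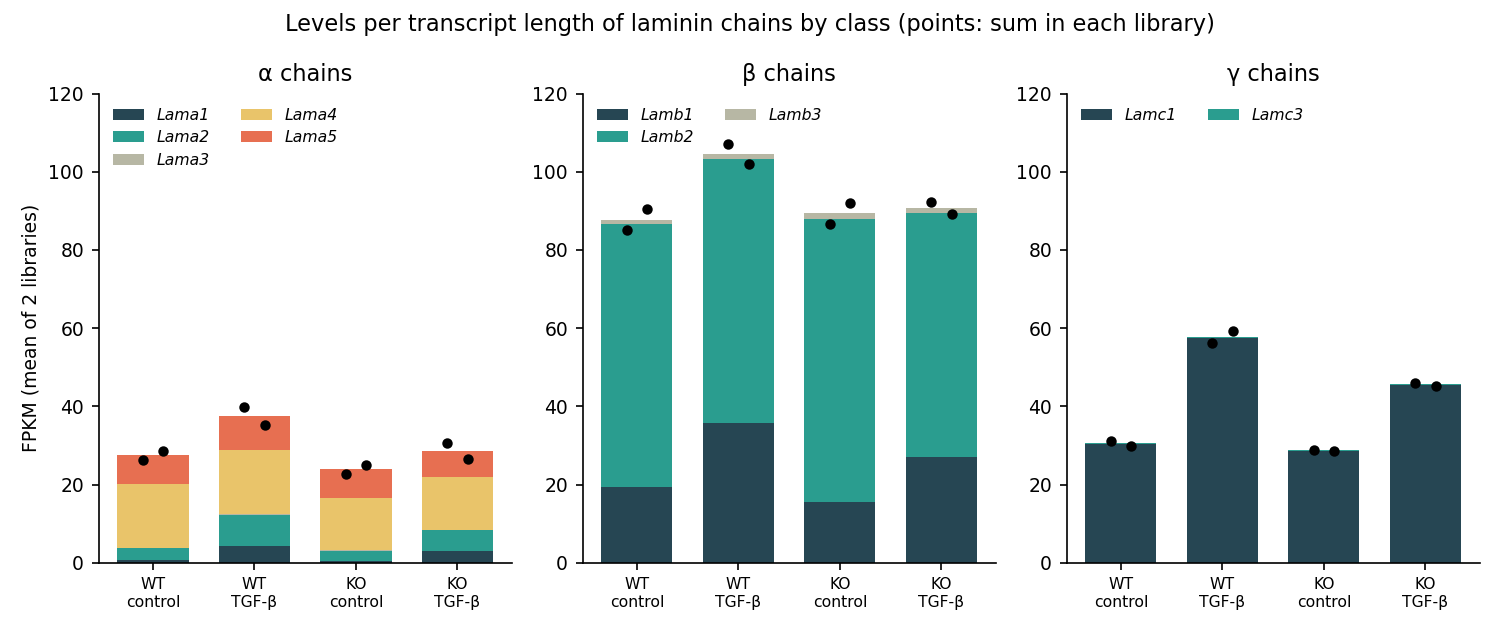
Stacked bars give the mean FPKM (y axis, linear, from 0) of the laminin genes of each class in the 4 groups, 2 libraries each, with Lama3 and Lamb3 included; black points give the sum of the genes shown in each library. The sum of Lamc1 and Lamc3 is 30.6 and 57.7 FPKM without and with TGF-β in WT and 28.8 and 45.6 in KO, while Lamb2 takes most of the β bar in every group.

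The first comparison asks what TGF-β did to the chains in each genotype. Lama1, Lama2, Lamb1 and Lamc1 rose in WT astrocytes and in KO astrocytes, whereas Lama4 and Lamb2 did not pass the test in either. The call required an adjusted p under 0.05 in edgeR's quasi-likelihood test and a log2 fold change of 0.6 or more in size. By this rule 4 of the 8 chains were higher with TGF-β in WT, where 7.72% of all genes were, and 4 of 8 in KO, where 6.61% were. None was lower, beside 5.65% and 4.93% of all genes. On the log2 scale the median change of the 8 was 1.05 (WT) and 0.90 (KO), and that of all genes tested lay within 0.01 of 0.

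Lama1 had the largest fitted rise of the 8 chains and a wide spread between its control libraries. Its levels were 11.7 and 3.76 CPM in WT control and 51.1 and 75.1 in WT TGF-β, 11.2 and 2.66 in KO control and 35.8 and 55.0 in KO TGF-β. Every TGF-β library was above every control library, but control replicate 1 was 3.10 times as high as control replicate 2 in WT and 4.22 times in KO. The log2 fold change was 3.04 (adjusted p = 0.00592, SE 0.57), an 8.25-fold rise, in WT, and 2.73 (adjusted p = 0.0120, SE 0.59), a 6.63-fold rise, in KO. The WT value was 2.41 without WT control replicate 2 and 4.06 without WT control replicate 1. The KO value was 4.07 without its control replicate 1, and it was no longer past the threshold without control replicate 2 (2.02, adjusted p = 0.0564) or without TGF-β replicate 2 (2.36, adjusted p = 0.0652).

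Lama2 was steadier in the controls. It was read at 40.5 and 40.9 CPM in WT control, 91.7 and 136 in WT TGF-β, 38.0 and 29.5 in KO control and 69.4 and 82.3 in KO TGF-β. The groups did not overlap within either genotype, and the log2 fold changes were 1.48 (adjusted p = 0.00129, SE 0.19) in WT and 1.17 (adjusted p = 0.00454, SE 0.20) in KO. The lower WT TGF-β library still lay above both KO TGF-β libraries.

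Lama4 did not separate the treatments. Its CPM values were 124 and 159.7 in WT control, 187 and 122 in WT TGF-β, 101 and 129.7 in KO control and 140.0 and 97.3 in KO TGF-β, so control and TGF-β libraries overlapped in both genotypes. The log2 fold change was 0.13 in WT (95% interval -0.44 to 0.69, adjusted p = 0.721) and 0.04 in KO (-0.53 to 0.61, adjusted p = 0.924), and it fell just below 0 on the FPKM scale in both. These intervals leave room for a rise or fall of up to about the fold limit.

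Lama5, the α chain of mature vascular and epithelial basement membranes, moved little, and was under the adjusted p limit in WT only. It was at 125 and 123 CPM in WT control and at 164 and 161 in WT TGF-β, a log2 fold change of 0.39 (adjusted p = 0.00160, SE 0.05) that missed the fold limit. In KO it was at 114 and 121 CPM in control and 126 and 125 with TGF-β, a log2 fold change of 0.09 (adjusted p = 0.232, SE 0.05), although the groups did not overlap. On the FPKM scale the WT value was positive and the KO value was -0.10, where the median of all genes was also shifted by -0.11.

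The β chains differed from each other. Lamb1, found in most laminins of the embryo and of the vessel wall, rose from 147 and 144 CPM in WT control to 280.1 and 314 in WT TGF-β, and from 122 and 106 in KO control to 209 and 236 in KO TGF-β. Its log2 fold changes were 1.03 (adjusted p = 0.000320, SE 0.09) and 0.97 (adjusted p = 0.000502, SE 0.09), about a doubling in each genotype with no overlap of groups. Lamb2, the β chain of synaptic, glomerular and mature basement membranes, was at 493 and 552 CPM in WT control, 567 and 534 in WT TGF-β, 508 and 564 in KO control and 529 and 476 in KO TGF-β. Those libraries overlapped in each genotype, and the log2 fold change was 0.07 (95% interval -0.13 to 0.28, adjusted p = 0.558) in WT, where the sign turned under upper quartile scaling, and -0.09 (-0.30 to 0.12, adjusted p = 0.471) in KO.

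The γ chains both had higher levels with TGF-β, at very different depths. Lamc1, the γ chain shared by nearly all laminins, rose from 291 and 283 CPM in WT control to 557 and 655 in WT TGF-β, and from 270.1 and 253 in KO control to 456 and 478 in KO TGF-β. The log2 fold change of Lamc1 was 1.08 (adjusted p = 0.000210, SE 0.09) in WT and 0.84 (adjusted p = 0.000636, SE 0.09) in KO, the most precise of the rises above the fold limit. Lamc3, a rarer γ chain of cortex, retina and nerve, was near the limit of detection with 17 and 0 counts in WT control, 36 and 70 in WT TGF-β, 14 and 5 in KO control and 27 and 44 in KO TGF-β. The groups did not overlap, but the log2 fold changes of 2.57 (adjusted p = 0.0548, SE 0.87) and 2.00 (adjusted p = 0.133, SE 0.90) were not past the threshold. The WT value ranged from 1.52 without WT control replicate 2 to 8.69 without WT control replicate 1. WT control replicate 2 had a count of 0 for the gene, although its deposited FPKM was 0.0163.

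**Figure D2:**
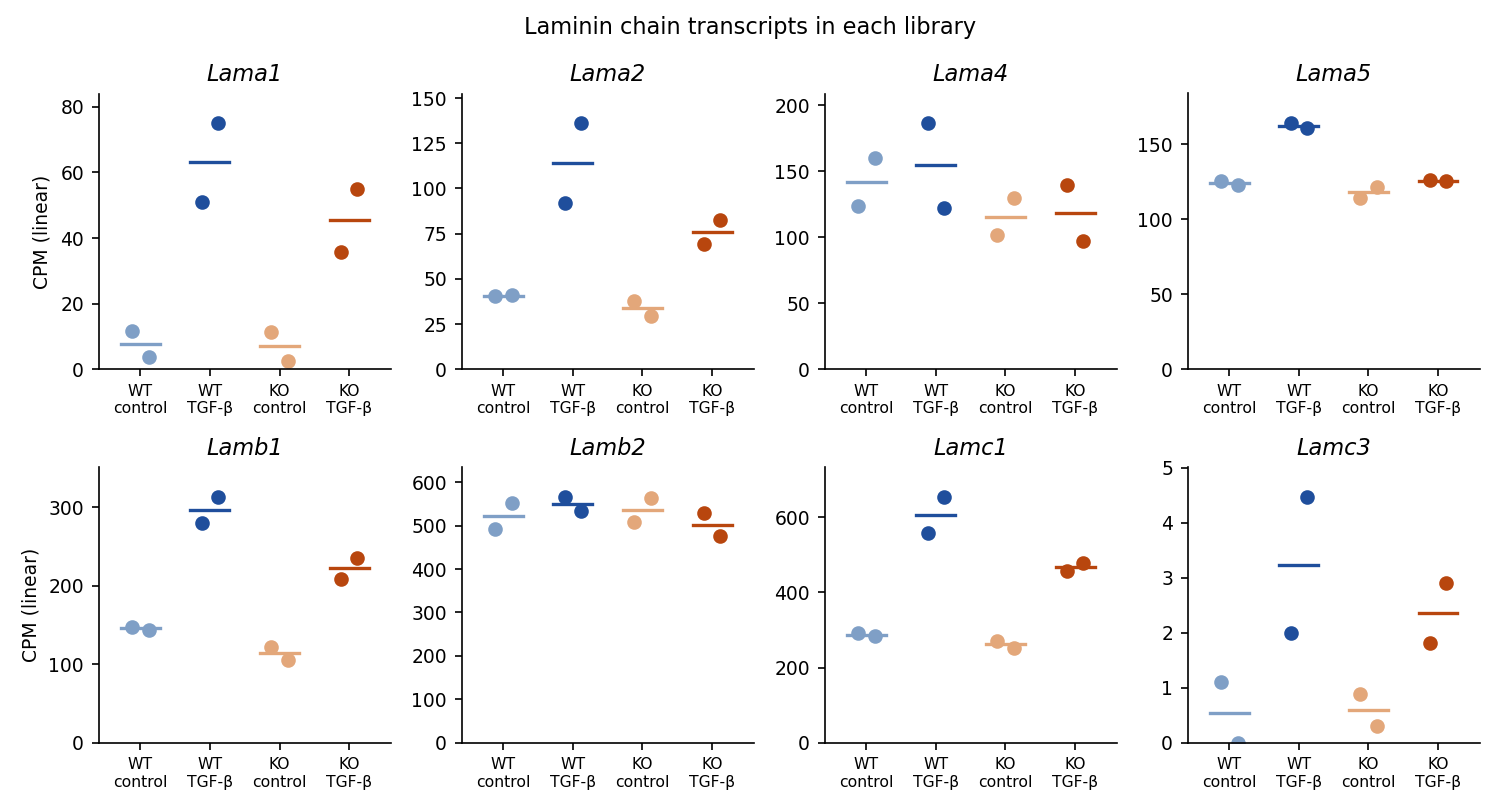
Each panel plots the CPM of a laminin chain gene (y axis, linear, from 0, own scale) in the 8 libraries, with points for libraries and a line at the mean of the 2 libraries of a group. Lama1, Lama2, Lama5, Lamb1, Lamc1 and Lamc3 have every TGF-β point above the control points of the same genotype, while the points of Lama4 and Lamb2 overlap. Of all genes tested, 35.4% in WT and 34.3% in KO had every TGF-β library above every control library.

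Averaged over the genotypes, 5 of 8 chains were higher with TGF-β beside 8.33% of all genes. The additional chain was Lamc3, with a log2 fold change of 2.28 (adjusted p = 0.0182, SE 0.63) that lost the call with DESeq2 (adjusted p = 0.0981) and without any of WT TGF-β replicate 2, KO control replicate 2 or KO TGF-β replicate 2 (adjusted p = 0.0589, 0.0609 and 0.0608). It was 5.34 without WT control replicate 1. Lamc1 (0.96, adjusted p = 2.59e-05) and Lamb1 (1.00, adjusted p = 3.13e-05) had the smallest p-values, and Lama5 stood at 0.24 (adjusted p = 0.00149), under the fold limit.

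**Figure D3:**
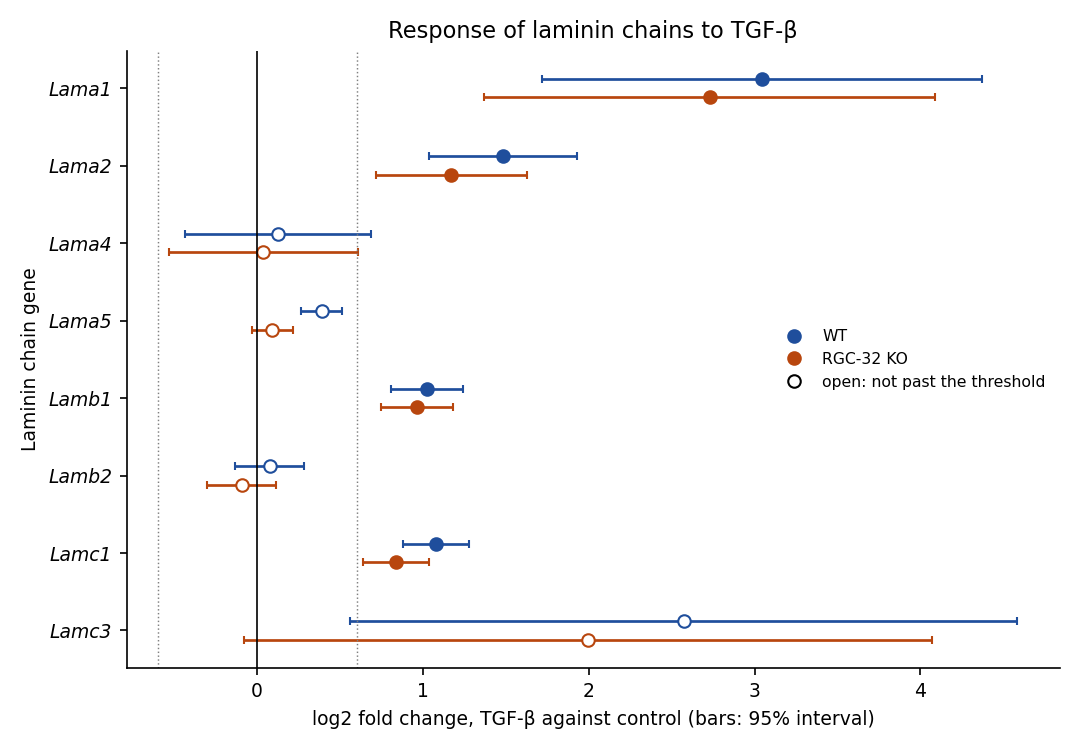
Points give the log2 fold change with TGF-β (x axis) of each chain (y axis) in WT and KO astrocytes, bars the 95% interval from the edgeR fit, filled points those past the threshold, and dotted lines the fold limit of 0.6. In both genotypes Lama1, Lama2, Lamb1 and Lamc1 are filled. Every WT point lies to the right of the KO point of the same chain, an order that 47.7% of all genes had.

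The second comparison asks whether the response depended on RGC-32. The difference of the responses (WT minus KO) was positive for all 8 chains, from 0.06 for Lamb1 to 0.57 for Lamc3, and for 47.7% of all genes. The chains were read in the same 8 libraries, so their signs are not independent. No chain passed the test of the interaction. Neither did any gene in the table (0%, smallest adjusted p = 1.00 in edgeR, with 381 genes or 2.82% at an unadjusted p under 0.05, and 0 genes called in DESeq2 or limma-voom). Lama5 was the chain with the clearest difference, 0.30 (95% interval 0.12 to 0.47, unadjusted p = 0.00458, adjusted p = 1.00), and it remained between 0.25 and 0.34 whichever library was left out. Lamc1 followed at 0.24 (-0.04 to 0.52, unadjusted p = 0.0817). For Lama1 the interval ran from -1.63 to 2.26 and for Lamc3 from -2.56 to 3.71, so a large difference in either direction could not be detected. The signs for Lama1, Lama2, Lama4, Lamb1 and Lamc3 turned when single libraries were left out, and that of Lama4 also on the FPKM scale.

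The third comparison sets WT against KO astrocytes directly. No chain was past the threshold without TGF-β, beside 0.037% of all genes. The largest difference relative to its error was that of Lamb1, with 147 and 144 CPM in WT and 122 and 106 in KO. Its log2 fold change was 0.36 (SE 0.09, unadjusted p = 0.00536, adjusted p = 0.505). For Lama2, Lama5, Lamb1 and Lamc1 every WT library lay above every KO library, as was so of 17.4% of all genes. Lamb2 (-0.04) and Lamc3 (-0.14) were the chains with a lower fitted value in WT, and both signs turned when single libraries were left out.

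With TGF-β the level of every chain was higher in WT than in KO in the fit, as was that of 49.9% of all genes. None of the chains passed the threshold (0.0444% of all genes did), and the sign for Lamc3 turned without WT TGF-β replicate 2. The median difference of the 8 was 0.40 on the log2 scale and that of all genes 0.00. Lama5 had 164 and 161 CPM in WT TGF-β against 126 and 125 in KO TGF-β, a log2 difference of 0.37 (adjusted p = 0.0859, SE 0.05). For Lamb1 it was 0.42 (adjusted p = 0.183, SE 0.09), for Lamc1 0.38 (adjusted p = 0.191, SE 0.09) and for Lama2 0.58 (adjusted p = 0.303, SE 0.19). In these 4 chains and in Lamb2 every WT library was above every KO library, 5 of 8 beside 22.4% of all genes. The unadjusted p-values of the 4, 0.000129 to 0.0141, compare with 11.7% of all genes under 0.05. DESeq2 gave adjusted p-values of 0.0199 for Lama5, 0.0284 for Lamb1 and 0.0308 for Lamc1, with the differences still under the fold limit. Sums of some cell type markers also stood apart by genotype, although no gene of any marker list was called between genotypes. Others overlapped, such as the endothelial sum with TGF-β (74.7 and 73.0 CPM in WT, 80.5 and 67.8 in KO). So did the ependymal sum in control cultures (397 and 459 in WT, 425 and 475 in KO). With TGF-β the fibroblast sum was 8895 and 10344 CPM in WT and 6879 and 7181 in KO. Col1a1 alone held 3807 and 4627 CPM of it in WT and 2767 and 3018 in KO. The pericyte and smooth muscle sum with TGF-β was 669 and 761 in WT against 498 and 585 in KO. The astrocyte sum was 3705 and 3584 against 4383 and 4716, and the ependymal sum 283 and 253 against 304 and 314. In control cultures the fibroblast sum was 5000 and 5918 in WT against 4372 and 4109 in KO, the pericyte and smooth muscle sum 249.8 and 240.1 against 215 and 211, and the astrocyte sum 4619 and 4847 against 5342 and 6004. Their part in the genotype differences of the chains was not tested.

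Averaged over the treatments, the WT level was again higher in the fit for 8 of 8 chains, beside 51.3% of all genes. None of the chains was past the threshold, beside 0.126% of all genes. Lamb1 (0.39, SE 0.07) and Lama5 (0.22, SE 0.04) had an adjusted p of 0.0616 each, followed by Lamc1 (0.26, adjusted p = 0.117) and Lama2 (0.43, adjusted p = 0.214). Lama1 (0.31, 95% interval -0.66 to 1.29) and Lamc3 (0.15, -1.44 to 1.73) had wide intervals, and both signs turned without WT control replicate 1 (-0.20 and -2.91). Lamb2 was level between genotypes within a narrow interval, 0.05 (-0.10 to 0.20). The comparisons share libraries with each other, so they are given side by side and do not add to one another.

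**Figure D4:**
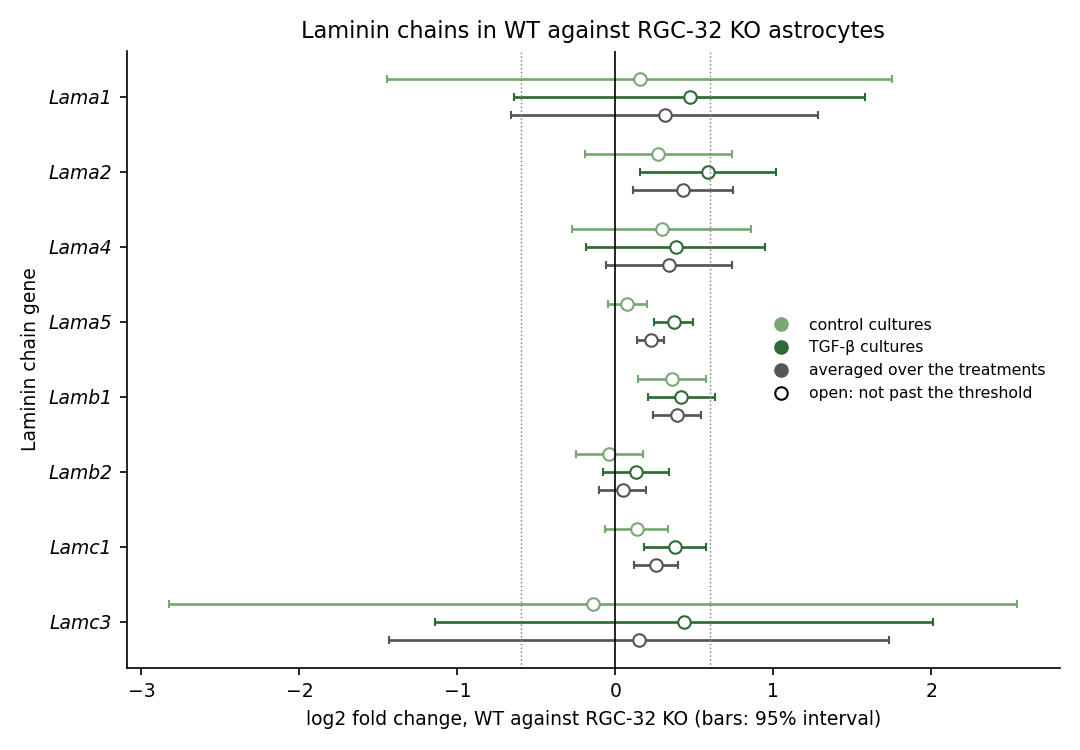
Points give the log2 fold change of WT against KO (x axis) of each chain (y axis) in control cultures, in TGF-β cultures and averaged over both, bars the 95% interval from the edgeR fit, and dotted lines the fold limit of 0.6. All points are open (not past the threshold). The TGF-β points lie to the right of 0 for all 8 chains, from 0.13 for Lamb2 to 0.58 for Lama2, beside 49.9% of all genes.

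Across the 8 libraries the chains fell into patterns that follow from these values. The correlation of log2 CPM, a description over libraries that share their treatment groups, was 0.99 between Lama2 and Lamc1, 0.987 between Lama2 and Lamb1 and 0.987 between Lamb1 and Lamc1. Lama1 was nearest to Lama2 (0.930), Lamc3 to Lama1 (0.915) and Lama5 to Lamb1 (0.829). Lama4 and Lamb2, the pair without a TGF-β response past the test, were nearest to each other (0.795). Among 13065 other genes, the profile most like Lama1 was that of Col6a3, a collagen VI chain (0.999), and of Foxq1, a forkhead transcription factor (0.995). Those most like Lama2 were Col4a1, a collagen IV chain of the same basement membranes (0.996), and Plekhg1 (0.995). Lamb1 was most like Loxl2, which cross-links collagen (0.997), and Col1a1, a chain of collagen I (0.996). Lamc1 was most like Rusc2 (0.998) and Pcdh19, a protocadherin (0.997), and Lamc3 like Mpzl2 (0.993) and Wnt5a, a secreted Wnt ligand (0.984). Lama5 was most like Dync1h1, the heavy chain of cytoplasmic dynein (0.991), and Wdfy3 (0.987). The closest profiles to Lama4 were Lrrc32, which holds latent TGF-β at the cell surface (0.983), and Hivep2 (0.975), and to Lamb2 Tcp11l1 (0.973) and Trmt13 (0.963).

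Laminins work with a set of partners, which were counted from gene lists. Of 19 other basement membrane genes, 10 rose and none fell with TGF-β in each genotype, beside the 7.72% and 6.61% of all genes that rose, with medians of 0.64 and 0.63 on the log2 scale. The largest rises among those called in both were Fbln2, the fibulin that binds laminin and nidogen, at 2.48 (adjusted p = 0.000175, SE 0.19) in WT and 2.15 (adjusted p = 0.000333, SE 0.19) in KO, and Col15a1, a collagen of the outer basement membrane, at 1.78 (adjusted p = 0.0106, SE 0.39) and 1.28 (adjusted p = 0.0357, SE 0.37). Other members were chosen for naming after their values were seen, for their place in the laminin sheet. Hspg2, perlecan, had log2 fold changes of 1.35 (adjusted p = 0.000124) and 0.90 (adjusted p = 0.000539), Col4a1 of 0.93 and 0.83, Col4a2 of 0.99 and 0.92, and Agrn, agrin, of 0.75 and 0.63, all past the threshold. The nidogens, which link laminin to collagen IV, were not called: Nid1 stood at -0.14 and -0.16 and Nid2 at -0.27 and -0.39. In the TGF-β cultures 1 of the 19, again Hspg2, was past the threshold between genotypes, beside 0.0444% of all genes. Its mean was 903 CPM in WT and 524 in KO (log2 difference 0.79, SE 0.09, adjusted p = 0.0451, close to the limit). DESeq2 called 2 of the 19 in this comparison.

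Of 15 laminin receptor genes, 3 rose and none fell in WT, and 2 rose and 1 fell in KO, against 7.72% of all genes higher and 5.65% lower in WT and 6.61% and 4.93% in KO. Itga2, an integrin α chain for collagen and laminin, rose by 2.10 (adjusted p = 0.00400, SE 0.36) in WT and 1.85 (adjusted p = 0.00801, SE 0.36) in KO on the log2 scale, and Mcam, an adhesion receptor that binds the Lama4 product, by 2.08 (adjusted p = 0.000894, SE 0.25) and 2.00 (adjusted p = 0.00131, SE 0.25). The receptors outside that rule, named after their values were seen, were Itgb1, the shared β1 integrin chain, at 0.64 (called) in WT and 0.59 (under the fold limit) in KO, and Itgb4, at -0.69 (adjusted p = 0.0525) and -0.84 (called). Dag1, which encodes dystroglycan, had values of 0.16 and 0.08, Itga6 of 0.01 and -0.11 and Itga3 of 0.10 and 0.04, none past the test.

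Around dystroglycan 1 gene of the enzyme list and 1 of the dystrophin complex list were called higher in WT, where 7.72% of all genes were. Of 15 enzymes of its laminin-binding sugar chain, Gmppb, which makes GDP-mannose, rose in both genotypes (0.91 and 0.95) and none fell. Of 11 genes of the dystrophin complex, Sgcd, a sarcoglycan, rose in WT (0.85, adjusted p = 0.00746) and stood at 0.32 (adjusted p = 0.220) in KO, and no other was called. Sgcd was named after its values were seen. Among 5 netrin genes, whose proteins are built with laminin-type domains, none rose in either genotype, and 1, Ntng2 (named after its value was seen), fell in WT (-0.63, adjusted p = 0.0124) and stood at -0.44 (adjusted p = 0.0530) in KO. Of all genes, 6.61% rose in KO, and 5.65% fell in WT and 4.93% in KO. Lama3 stood at 0.48 and 0.36 and Lamb3 at 0.34 and 0.16, neither past the threshold.

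**Figure D5:**
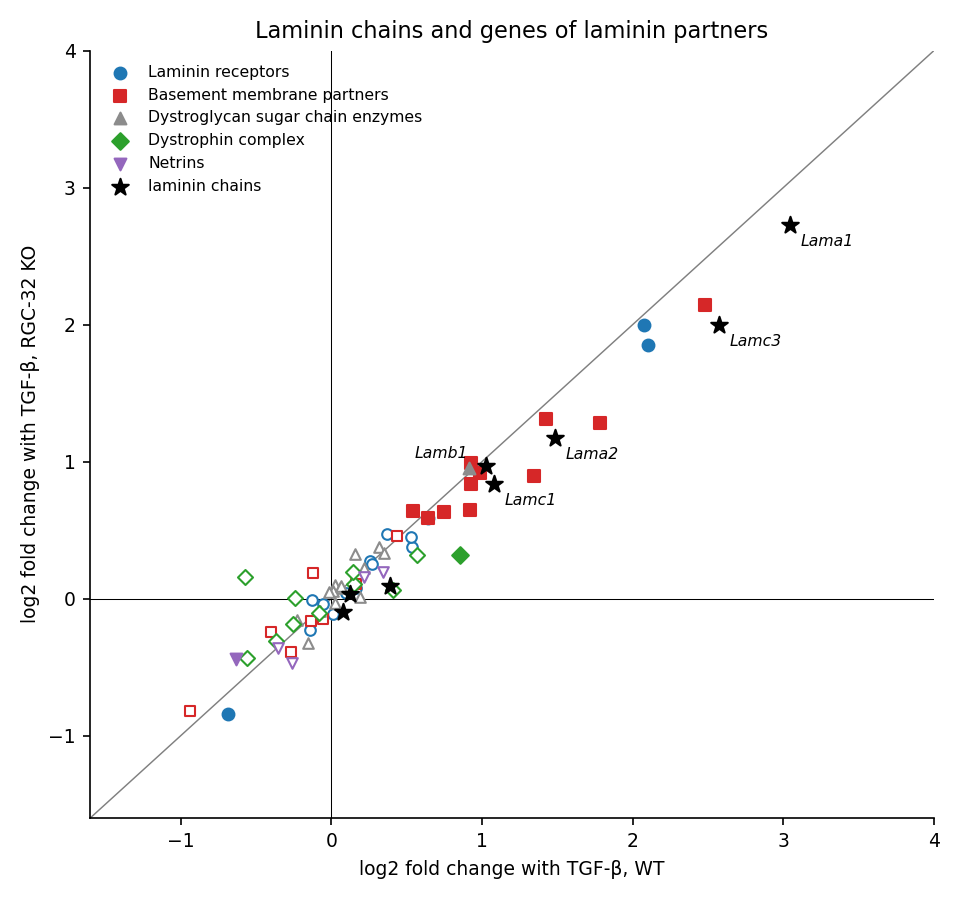
Each point is a gene of a partner list or a laminin chain (stars), with its log2 fold change with TGF-β in WT on the x axis and in KO on the y axis; filled symbols of the lists passed the threshold in at least 1 genotype, and the grey line marks equal values. Basement membrane genes that rose, of which Fbln2 had the largest rise (2.48 and 2.15), lie along the line near Lama1, Lamc3, Lama2, Lamb1 and Lamc1. In each genotype 9 of the 19 basement membrane genes were not called, and some, such as Nid2 (-0.27 and -0.39), lie below 0. Most genes around dystroglycan lie close to 0.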

How the data were processed

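RNA of 8 astrocyte cultures was sequenced without strand. The authors aligned the reads with STAR to mm10 and deposited counts per gene symbol, not normalized, and FPKM values from Cufflinks; the annotation and the counting program are not given in the sources used here. Deposited tables of fold changes and p-values were not used. Cultures were grouped by their labels. Counts (13937 genes, of which 21 names had been turned into dates and 1 was repeated) were tested with edgeR 4.0.16 (R 4.3.3): filterByExpr left 13509 genes, libraries were scaled by TMM, and a quasi-likelihood model with 4 group means was fitted to all 8 libraries. The p-values are two-sided and adjusted by the Benjamini-Hochberg method over all genes tested. SE and 95% intervals come from the same fit, and a prior count of 2 entered log2 CPM. Levels between genes were compared on FPKM. DESeq2 1.42.0, limma 3.58.1, other scalings and filters, and left-out libraries were alternatives, and the procedure was tested on simulated data. All 8 chains were named, with the 2 genes most like each, and from each partner list up to 4 genes called in both genotypes (the 2 largest rises and the 2 largest falls in WT). Some genes of these lists are not reported here and enter no list count or class sum. The chains and lists were chosen with earlier results of these data known.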

Additional observations from a re-analysis of the deposited data

How the results depend on the processing

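Limits: each group had 2 cultures, so intervals are wide for Lama1 and Lamc3, whose replicates differed most, and Lamc3 was limited by depth at 0 to 70 counts. Over 1145 recomputed log2 fold changes of the chains, 1067 kept their direction and side of the threshold, 17 lost the call, 8 gained it and 53 changed sign. The rises of Lama2, Lamb1 and Lamc1 in both genotypes and of Lama1 in WT held under every alternative other than the Bonferroni correction, which the Lamc1 rise in WT also passed. Under that correction 1 chain was past the threshold in WT, 0 in KO and 2 averaged over the genotypes, and 174 genes in all were called in WT (1806 otherwise) and 141 in KO (1559 otherwise). Of all-gene calls, 57.8% were higher in WT and 57.3% in KO, against 44.8% and 45.5% with upper quartile scaling. The median of all genes in WT was -0.12 on log2(FPKM + 0.1), where 38.7% were higher (37.2% in KO), and 47% and 44.8% were higher on log2(FPKM + 1).

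Lamc3 was past the threshold in WT with limma-voom (4.0, adjusted p = 0.0474) and on log2(FPKM + 0.1) (1.25, adjusted p = 0.0287), and in KO when 4 libraries were fitted (1.99, adjusted p = 0.0344). Signs turned as follows. For TGF-β in WT, Lama4 was -0.029 on log2(FPKM + 1) and -0.032 on log2(FPKM + 0.1), and Lamb2 -0.011 with upper quartile scaling. For TGF-β in KO, Lama4 was -0.045 with upper quartile scaling, -0.015 on log2(FPKM + 1) and -0.017 on log2(FPKM + 0.1), and Lama5 -0.10 and -0.11 on those FPKM scales. Averaged over the genotypes, Lama4 was -0.0025 with upper quartile scaling and -0.022 and -0.025 on the FPKM scales. The interaction of Lama4 was -0.014 and -0.015 on the FPKM scales. For WT against KO, Lamc3 in control cultures was 0.0015 on log2(FPKM + 1) and the average -0.61 with limma-voom. The cause was not tested.

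With single libraries left out, the values of TGF-β against control ran from -0.21 to 0.38 (Lama4) and -0.0036 to 0.14 (Lamb2) in WT, from -0.25 to 0.25 (Lama4) in KO, and from -0.090 to 0.20 (Lama4) and -0.062 to 0.029 (Lamb2) on average. The interaction ran from -1.04 to 1.33 (Lama1), -0.0038 to 0.59 (Lama2), -0.23 to 0.37 (Lama4), -0.039 to 0.17 (Lamb1) and -0.46 to 6.69 (Lamc3). WT against KO ran from -0.86 to 1.51 (Lama1), -0.12 to 0.041 (Lamb2) and -6.26 to 0.90 (Lamc3) in control cultures, from -0.26 to 0.93 (Lamc3) in TGF-β cultures, and from -0.20 to 0.99 (Lama1) and -2.91 to 0.67 (Lamc3) on average.

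From CPM per kilobase in place of FPKM, Lamc1 made up 99.33% of the sum of Lamc1 and Lamc3 in WT TGF-β and 99.35% in KO TGF-β, and Lamc3 0.670% and 0.648%. With upper quartile scaling 1 receptor and 1 dystrophin complex gene fell in WT. The replicate numbers gave no common pairing: replicate differences of control and TGF-β correlated at -0.343 in WT and -0.348 in KO, those of WT and KO at 0.491 in control and 0.253 in TGF-β cultures, and those of WT control with KO TGF-β and of WT TGF-β with KO control at -0.483 and -0.507. With the replicate number as a block, 4 chains were called in each genotype and 1616 and 1369 genes in all; between genotypes 0 chains were called and 2 (control), 3 (TGF-β) and 9 (average) genes, against 5, 6 and 17 without it and 13, 33 and 39 in DESeq2. With the pairing crossed, chosen after seeing the data, 5 chains were called in each genotype and 2105 and 1852 genes in all, and between genotypes 0 chains and 10, 36 and 61 genes.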
